A study of Mus musculus with 8 samples.

Results

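Cytosolic ribosomal protein genes were taken by name from the array annotation, as every gene whose name is Rpl or Rps with a number, and Rplp0, Rplp1, Rplp2 and Rpsa, with pseudogene names and the Rps6k kinase genes left out. The rule used no measured value and found 85 genes with 181 probes among 37058 gene names with 56567 probes. Of these, 84 genes with 177 probes passed the filter on dim probes, which asked for a signal well above background on both arrays of some treatment group, and were tested with 21497 genes in all. Rpl10l was the gene left out, since its probe was well above background on 1 of the 8 arrays.

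CT26 cells are a line of mouse colon carcinoma from the BALB/c strain, and the tumors were grown under the skin of the flank of mice that the methods give as female, from 500000 implanted cells. Mice received vehicle, TP-16 (BY001, an antagonist of the prostaglandin E2 receptor EP4, 75 mg/kg by mouth each day), an antibody against the T-cell receptor PD-1 (50 µg per mouse, given 2 times a week by peritoneal injection) or TP-16 together with the antibody, for 2 weeks. Total RNA of whole tumor tissue was hybridised to 1-colour Agilent arrays, 2 per group, described as independent biological replicates. Neither the labels nor the methods say whether a sample was 1 tumor or a pool, and neither mentions a transgene or deletion.

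The cytosolic ribosome is built from a small 40S and a large 60S subunit, in which ribosomal RNA is joined by a set of proteins that most cells make in fixed proportion. The mRNAs of these proteins are among the most abundant in a growing cell, and most begin with a run of pyrimidines, the TOP motif, through which mTOR signaling governs their translation. A few ribosomal proteins have a paralog, such as Rpl22l1 for Rpl22 and Rpl39l for Rpl39, that can take the place of the parent protein.

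The arrays shared 1 slide and 1 scan. Slide row and antibody, and slide column and TP-16, cannot be told apart in its layout. The 75th percentile of probe intensity, by which each array was scaled, was 371 and 379 in vehicle, 531 and 551 in TP-16, 398 and 415 in anti-PD-1, and 608 and 734 in combination tumors. It was thus higher on every treated array than on either vehicle array, and highest on the combination arrays. No spot was saturated on any array. Precision is limited by the number of arrays, and the p-values measure the spread between 2 samples a group.

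Most ribosomal protein genes lay at the bright end of the arrays. A level is given here as the log2 intensity above the 75th percentile of the array, and 80 of the 84 tested genes had a mean level of 6 or more. Their median intensity before any scaling was 178738 and 185168 in vehicle, 173101 and 192423 in TP-16, 168566 and 178230 in anti-PD-1, and 169158 and 170737 in combination tumors. Unscaled, the combination and anti-PD-1 arrays were below both vehicle arrays by a small margin, and the TP-16 arrays lay on either side of them. The brightest of these probes reached between 36.1% and 39.4% of the saturation intensity. Repeated spots were close, since a member probe printed as 10 spots had a median SD of 0.024 on the log2 scale within an array.

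**Figure D1:**
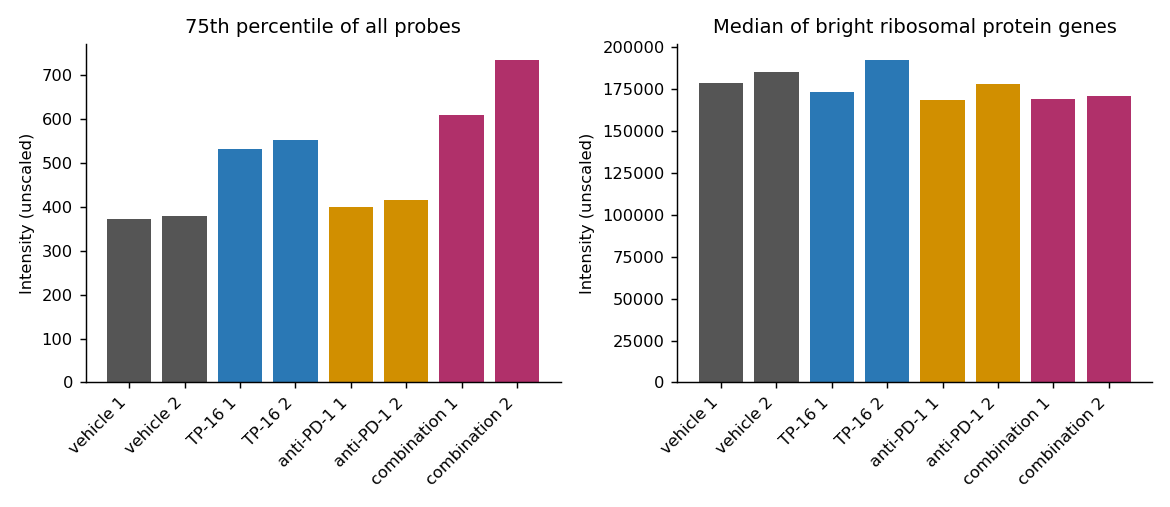
Unscaled intensity on each of the 8 arrays, as the 75th percentile of all probes (left) and the median of the 80 bright ribosomal protein genes (right). The percentile ran from 371 to 734 over the arrays, while the median of the ribosomal protein genes stayed between 168566 and 192423.

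Relative to the 75th percentile, ribosomal protein genes were lower in combination tumors than in vehicle tumors almost without exception. Of 84 tested genes 81 fell and 0 rose at an adjusted p of at most 0.05 in limma, where 26.1% of all tested genes fell, 9.62% rose and 35.7% changed in either direction. Their median log2 fold change was -0.97, against -0.24 for all tested genes. On each array, the median level of the 80 bright genes was 8.91 and 8.93 in vehicle and 8.12 and 7.86 in combination tumors. Both combination arrays were below both vehicle arrays in 82 of 84 genes, against 50.3% of all genes. With no adjustment, 81 were lower at a limma p of at most 0.05, against 35.6% of all genes, and 30 of them by a fold of 2, against 10.4%. The methods name that fold with a t-test, which gave 29 members lower, against 1187 of 21497 genes. That count of 30 was 1 after quantile normalization, against 5.15%, 6 without combination replicate 2, against 6.18%, and 72 without combination replicate 1, against 13.3%.

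The size of this fall depended on the scaling. After quantile normalization, which gives every array the same distribution of intensities, the median log2 fold change was -0.08 for the ribosomal protein genes and -0.05 for all genes, and 7 genes fell, where 14.5% of all genes fell and 13% rose. Both combination arrays were then below both vehicle arrays in 52 of 84 genes, against 37.9% of all genes. After cyclic loess normalization 19 genes fell, where 13% of all genes fell. Without any scaling the median was -0.13 for the family and 0.60 for all genes. Without combination replicate 2, 0% of all genes and so 0 ribosomal protein genes were called at the 75th-percentile scaling. The smallest adjusted p of the family was then 0.0648, and 81 members were lower at an unadjusted p of at most 0.05, against 23.7% of all genes. A fit of only these 2 groups also called 0% of all genes, with 81 members lower at the unadjusted threshold, against 29.5%. The methods' t-test called 0 after adjustment and gave 78 lower before it, against 22.1%.

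**Figure D2:**
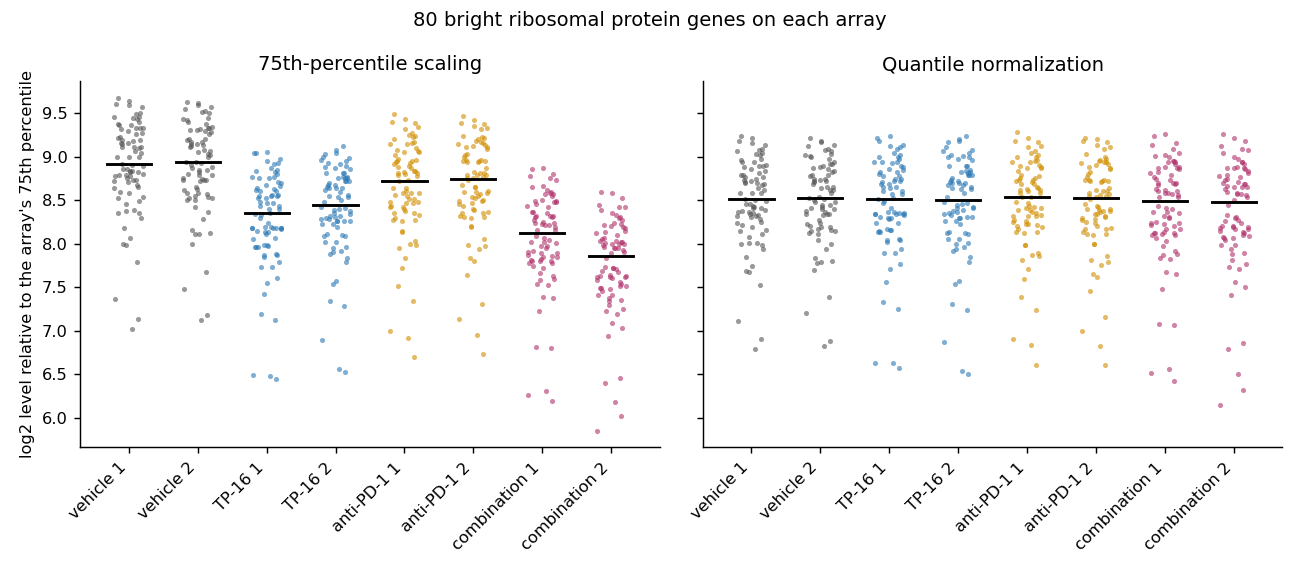
Log2 level of each of the 80 bright ribosomal protein genes on each array, relative to the 75th percentile of the array (left) and after quantile normalization (right), with a black line at the median. At the 75th-percentile scaling the medians ran from 8.93 in vehicle to 7.86 in combination tumors, and after quantile normalization all 8 lay between 8.48 and 8.54.

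Other bright genes shifted in the same direction, with a median of -0.78 at a level of 6 and over, against -0.97 for the family. Dim genes did so to a lesser degree. Among genes outside the family, the median log2 fold change of combination against vehicle was -0.61 at a level under -4, -0.42 from -4 to -2, -0.07 from 0 to 2, -0.62 from 6 to 7, -0.81 from 7 to 8 and -0.90 at 8 and over. The ribosomal protein genes at a level of 8 and over, 67 of them, had a median of -0.97. The 10 from 7 to 8 were at -0.97 and the 3 from 6 to 7 at -1.05. After quantile normalization the medians at 8 and over were -0.06 for the family and -0.02 for the 220 other genes. From 7 to 8 they were -0.23 and -0.13, and from 6 to 7 -0.52 and -0.10. The part of brightness in the fall of the bright ribosomal protein genes was not tested.

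**Figure D3:**
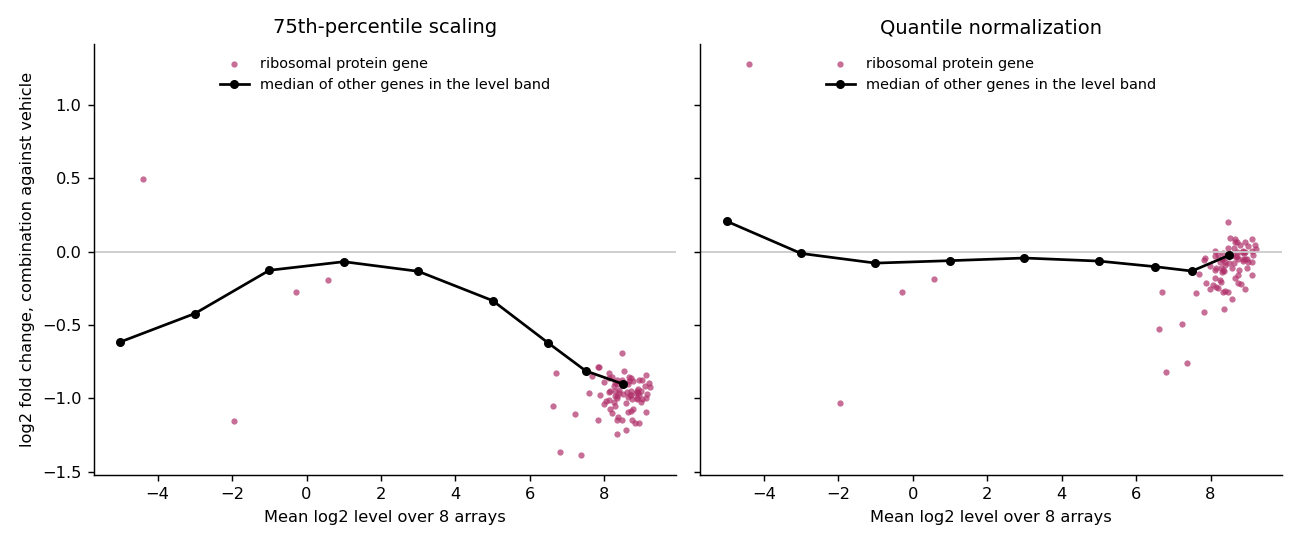
Log2 fold change of combination against vehicle plotted on the mean log2 level over 8 arrays, for each tested ribosomal protein gene (points) and as the median of all other genes in bands of level (line), at the 75th-percentile scaling (left) and after quantile normalization (right). The line falls from -0.07 at a level of 0 to 2 to -0.90 at 8 and over on the left, and lies at -0.02 in the top band on the right.

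Single agents gave no called ribosomal protein gene. With TP-16 alone 0 of 84 were called in limma, where 0.0558% of all genes were. At an unadjusted limma p of at most 0.05, 79 were lower, against 21.9% of all genes, and 1 of them by a fold of 2, against 5.12%. The methods' t-test with that fold gave 0 members lower, against 333 of 21497 genes. Those 79 became 4 after quantile normalization, against 10.9%, and 12 after cyclic loess normalization, against 12.1%. The median level of the bright genes was 8.35 and 8.45 on the TP-16 arrays, below both vehicle arrays, and the median log2 fold change was -0.56 against -0.15 for all genes. With anti-PD-1 alone 0 were called, against 0.0744% of all genes. At the unadjusted limma threshold 6 were lower, against 10.1%, and 0 of them by a fold of 2, against 2.24%. The methods' t-test gave 72 lower before adjustment, against 9.05%, and 0 after it. Of those 72, 0 fell by a fold of 2, where 149 of 21497 genes did. Both anti-PD-1 arrays were below both vehicle arrays in 81 of 84 genes, against 35.4% of all genes, and after quantile normalization in 33 of 84, against 26.1%. After quantile normalization 1 was lower at the unadjusted threshold, against 7.01%. The count of 6 was 16 without either combination array, and 1 or 2 without any other single array. The medians there were -0.23 for the family and -0.10 for all genes, with bright levels of 8.72 and 8.75 on the 2 arrays. These comparisons share the vehicle arrays. With normexp background correction 59 genes fell with TP-16 alone, against 17.2% of all genes, and with trended and robust moderation 47, against 3.95%.

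The combination was also set against each agent. Against TP-16 alone 0 ribosomal protein genes were called, against 0% of all genes, with 72 lower at an unadjusted p of at most 0.05, against 14.4%. Those 72 became 6 after quantile normalization (11.1% of all genes), 8 after cyclic loess normalization (8.28%), 9 without TP-16 replicate 2 (5.03%) and 14 without combination replicate 2 (4.36%). The methods' t-test gave 1 lower before adjustment, against 1558 of 21497 genes, and the fit of the compared groups only gave 33, against 2242 of 21497. Against anti-PD-1 alone 0 were called, against 0.014% of all genes, with 81 lower at the unadjusted threshold, against 21.1%, and a smallest adjusted p of 0.0722. After quantile normalization 7 were lower at that threshold, against 12.8%, and after cyclic loess normalization 18, against 12.1%. The median log2 fold changes were -0.42 and -0.74, against -0.09 and -0.14 for all genes. In the combination against anti-PD-1, 81 genes fell with normexp correction, against 20.2% of all genes. With trended and robust moderation 80 fell, against 8.8%, and among probes above background on all 8 arrays 73, against 6%. The departure from additivity, combination minus both agents plus vehicle, gave 0 calls, against 0% of all genes, with 1 member at an unadjusted p of at most 0.05, against 7% of all genes.

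Genes of both subunits fell at the 75th-percentile scaling. In combination tumors 32 of 33 tested genes of the 40S subunit and 49 of 51 of the 60S subunit fell, against 26.1% of all genes. The median log2 fold changes were -0.99 and -0.96 among the bright genes. After quantile normalization those medians were -0.08 and -0.07, with 2 and 5 genes called, both smaller shares than the 14.5% of all genes that fell. Bright genes ranged from -1.39 to -0.69. The least negative of them was Rpl7a, a 60S protein, at -0.69, which lay at 0.20 after quantile normalization (adjusted p = 0.149 in limma).

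Several proteins of the 40S subunit have well-known roles. Rps6, the subunit protein that S6 kinases phosphorylate, had a level of 8.72 and 8.73 in vehicle and 7.90 and 7.58 in combination tumors, and fell by 0.99 on the log2 scale (SE 0.14, limma adjusted p = 0.0103). Rps19, the gene most often mutated in Diamond-Blackfan anemia, was at 9.33 and 9.33 against 8.48 and 8.19. Rpsa, also known as a laminin receptor, was at 9.19 and 9.27 against 8.24 and 7.92. In these 3 genes both combination arrays were below both vehicle arrays at the 75th-percentile scaling, as in 50.3% of all genes. After quantile normalization their log2 fold changes of -0.14, -0.05 and -0.21 were not called. Rps27a, whose product is a fusion of ubiquitin with a ribosomal protein, fell by 1.00, and lay at -0.07 after quantile normalization.

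Among the 10 called members with the greatest fold, the 40S genes included Rps14, Rps21 and Rps15. Rps14 was at 9.36 and 9.40 in vehicle and 8.37 and 8.06 in combination tumors, with a log2 fold change of -1.17. Rps21 and Rps15 were at -1.17 and -1.15. After quantile normalization these 3 were not called, at -0.22, -0.26 and -0.28.

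In the 60S subunit, Rpl5 and Rpl11, which bind Mdm2 and so link ribosome assembly to p53, fell by 1.102 and 1.01. Rpl5 was at 8.78 and 8.62 in vehicle and 7.78 and 7.41 in combination tumors, and Rpl11 at 9.22 and 9.19 against 8.37 and 8.03. After quantile normalization neither was called, at -0.25 and -0.05. The stalk proteins, which recruit elongation factors to the ribosome, fell by 0.90 (Rplp0), 1.09 (Rplp1) and 0.87 (Rplp2), and after quantile normalization they lay at 0.02, -0.16 and 0.07 without a call, so that 2 of the 3 turned sign. Rpl3, which lies near the peptidyl transferase center, fell by 0.85 and was at -0.02 after quantile normalization.

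Of the 60S genes among the 10 with the greatest fold, Rpl41, which codes for a very short and basic protein, was at 8.85 and 8.94 in vehicle and 7.82 and 7.48 in combination tumors. It fell by 1.25 on the log2 scale, and by 0.39 after quantile normalization (adjusted p = 0.0373). Rpl34 fell by 1.22, and after quantile normalization was at -0.32 (adjusted p = 0.0547). Rpl37 was measured by 1 probe, well below the level of the bright genes, at -1.54 and -1.30 in vehicle against -2.27 and -2.87 in combination tumors. It fell under both scalings, by 1.15 and 1.03.

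**Figure D4:**
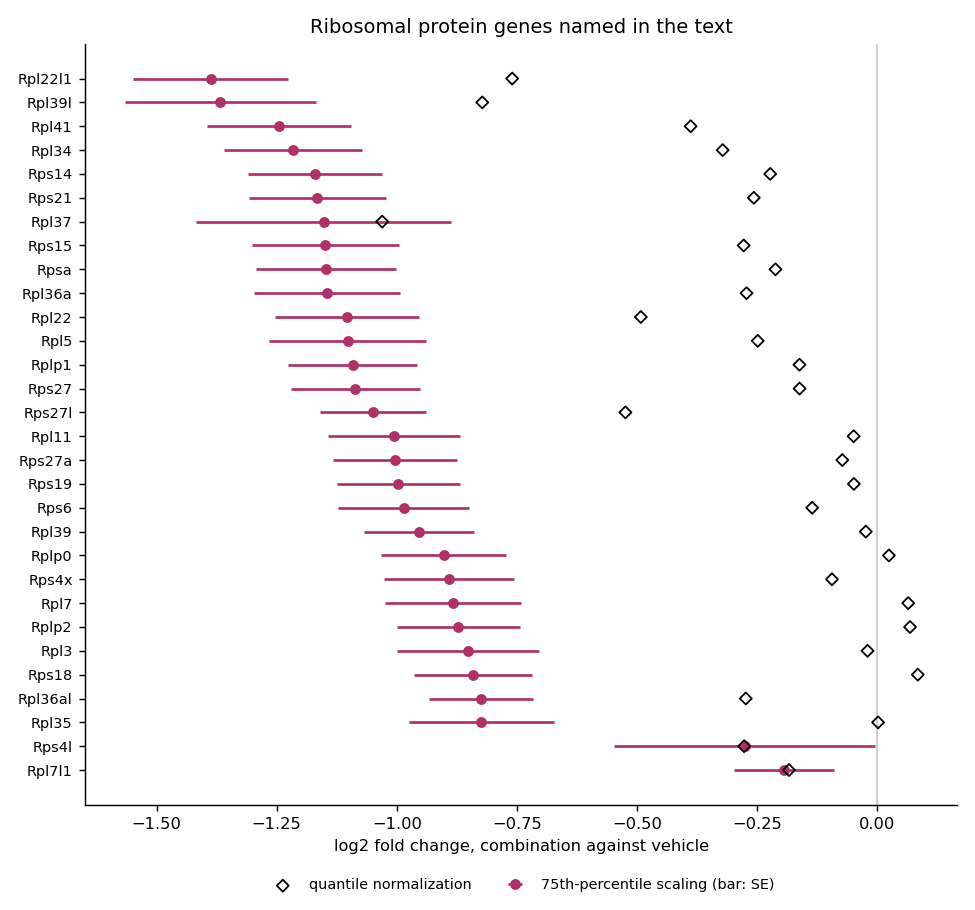
Log2 fold change of combination against vehicle for 30 of the named ribosomal protein genes, at the 75th-percentile scaling (filled points, bars are the SE of the fit) and after quantile normalization (open diamonds). Rpl22l1 and Rpl39l lie at -1.39 and -1.37 on the first scale and at -0.76 and -0.82 on the second, where the 30 genes run from -1.03 (Rpl37) to 0.08 (Rps18). Rpl3l is left out for its SE of 0.91.

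In combination against vehicle the members with the lowest fold, Rpl22l1 and Rpl39l, were paralogs, and so were the 3 highest, Rps4l, Rpl7l1 and Rpl3l. Rpl22l1 was at 7.995 and 7.99 in vehicle, 7.20 and 7.34 in TP-16, 7.52 and 7.64 in anti-PD-1, and 6.81 and 6.40 in combination tumors. The combination arrays were below all others, and the gene fell by 1.39 (SE 0.16, limma adjusted p = 0.0102), or to 0.382 of the vehicle level. Rpl39l was at 7.36 and 7.49, 6.49 and 6.89, 6.999 and 7.13, and 6.26 and 5.85 in the same groups, and fell by 1.37 (SE 0.20, adjusted p = 0.0107). Both also fell after quantile normalization, by 0.76 (adjusted p = 0.0165) and 0.82 (adjusted p = 0.0237). With each array centred on the median of the bright ribosomal protein genes, a scaling chosen after seeing the data, they fell by 0.46 and 0.44. They were named as the lowest of the family, so a fall below its median follows from that choice and is no test. Without combination replicate 2, the adjusted p of each was 0.0648 and 0.066 at the 75th-percentile scaling.

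Since Rpl22l1 and Rpl39l were the lowest of the family, their parents could not lie lower, and the ratios of paralog to parent are given as a description. Rpl22 fell by 1.103, and by 0.49 after quantile normalization (adjusted p = 0.0337), and Rpl39 fell by 0.95 and was at -0.02 after it. The log2 ratio of Rpl22l1 to Rpl22, set to a mean of 0 in vehicle, was -0.25 and -0.31 on the combination arrays, against -0.06 and 0.06 in vehicle. The ratio of Rpl39l to Rpl39 was -0.31 and -0.52, against -0.05 and 0.05. After quantile normalization the mean ratios in combination tumors were -0.27 and -0.80. Neither ratio overlapped with vehicle.

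The probes that carry these ratios share few bases, and the first 30 of the 60 bases of each are given to show that paralog and parent were read by different sequences. In the best ungapped alignment 22 of 60 bases matched between the Rpl22l1 and Rpl22 probes, and 21 of 60 between the Rpl39l and Rpl39 probes. The array annotation places them at chr3:28706237-28706296 (plus strand), chr4:151704158-151704217 (plus), chr16:10174657-10174716 (plus) and chrX:34622572-34622631 (minus) of the mm9 build, in the order below.
Rpl22l1: cagagtctgaggactaattggcctctgctt
Rpl22: aacctcggcggaggagtcgtgaccatcgaa
Rpl39l: ctgtgctttagtgagttcattcagcagttc
Rpl39: gatttcaacatttaaacctggagactcttc

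For Rps27l, Rpl36al, Rpl7l1 and Rps4l the ratio to the parent turned on the scaling. In combination tumors its mean was 0.04 for Rps27l, 0.32 for Rpl36al, 0.69 for Rpl7l1 and 0.62 for Rps4l at the 75th-percentile scaling, and -0.36, -0.00, -0.25 and -0.18 after quantile normalization. Rps27l, which p53 is known to induce, fell by 1.05, and by 0.52 after quantile normalization (adjusted p = 0.0194), while Rps27 fell by 1.09 and was at -0.16 after it. Rpl36al fell by 0.82 and Rpl36a by 1.15, and after quantile normalization both were at -0.27 without a call. Rpl7l1, a relative of Rpl7 with a role in ribosome assembly, was at 0.74 and 0.61 in vehicle and 0.45 and 0.52 in combination tumors, with a log2 fold change of -0.19 (adjusted p = 0.197). Its parent Rpl7 fell by 0.88 and was at 0.06 after quantile normalization. Rps4l was at -0.08 and 0.41 in vehicle and -0.15 and -0.07 in combination tumors, without a call, while Rps4x fell by 0.89 and was at -0.09 after quantile normalization. Rpl3l, the striated muscle form of Rpl3, was dim and scattered, at -6.33 and -3.52 in vehicle and -4.31 and -4.56 in combination tumors, with an SE of 0.91.

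Most members were read at the bright end, so the other probes of the family were examined, a choice made after the values were seen. Of the 177 tested probes 151 were bright, 19 of 18 genes lay at a level from -2 to under 6, and 7 were dimmer. In the middle range the scalings differed less than at the bright end, and all 19 probes had a negative log2 fold change in combination against vehicle. With either scaling 12 probes of 12 genes fell, where 21.1% of all probes of that range fell at the 75th-percentile scaling and 15.7% after quantile normalization. The medians of the 19 probes were -0.65 and -0.56, against -0.13 and -0.05 for the 19110 other probes of the range. Without combination replicate 2, in the fit of the compared groups only and by the methods' t-test, 0 of the 19 were called, where 0% of all probes of the range fell. With no adjustment 12, 14 and 12 of the 19 were lower in these settings, against 19.1%, 22.5% and 20.4% of all probes of the range.

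For 8 of the 19 middle-range probes the annotation gives an Ensembl transcript, not a RefSeq mRNA. A probe of Rpl10a was at 2.61 and 2.40 in vehicle and 1.46 and 1.17 in combination tumors, and fell by 1.19, or 1.17 after quantile normalization (adjusted p = 0.0159). A probe of Rpl12 was at 3.09 and 2.94 against 2.29 and 1.97, and fell by 0.88, or 0.83 (adjusted p = 0.018). A probe of Rps9 fell by 0.94, or 0.85 (adjusted p = 0.016). In these 3 probes both combination arrays were below both vehicle arrays, as in 17 of the 19 probes and in 50.3% of all genes. A probe of Rps24 showed the smallest value of the range, at -0.07 and, after quantile normalization, -0.06, and was not called, while another probe of Rps24 fell by 0.93, or 0.56 after quantile normalization (adjusted p = 0.0234).

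The first 30 bases of the middle-range and the bright probe of Rpl10a and Rpl12 are given to show that each pair reads different stretches of a gene. By the array annotation in mm9, the middle-range probes lie at chr17:28466103-28466162 and chr2:32818948-32819007 and the bright ones at chr17:28467917-28467976 and chr2:32819082-32819298, all on the plus strand. Whether these stretches are exonic was not analysed here.
Rpl10a, middle-range: caggcaggctggctggacggacccccaccc
Rpl10a, bright: ccatgggcaagccccagcgtctgtattagg
Rpl12, middle-range: aggtaaaatggagccatgatctcagaagac
Rpl12, bright: tctttggctagagaactttctgaaactatc

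**Figure D5:**
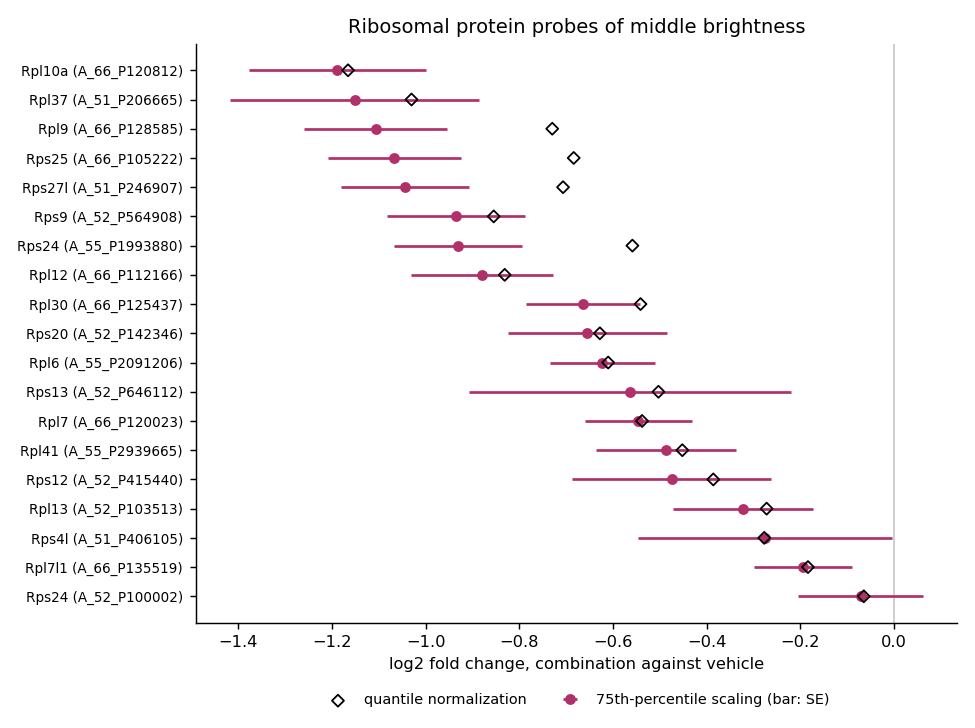
Log2 fold change of combination against vehicle for the 19 ribosomal protein probes with a mean level from -2 to under 6, at the 75th-percentile scaling (filled points, bars are the SE of the fit) and after quantile normalization (open diamonds). All 19 lie below 0 under both, from -1.19 to -0.07 on the first scale.

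Promoters of ribosomal protein genes were searched for letters known from the family. RefSeq promoter sequences of the GRCm38.p6 build, 250 bases before to 50 after a start, were matched by symbol for 63 of the members. The letters CTTTC, with which many TOP mRNAs begin, lay on the gene's strand within 50 bases of a start in 52.4% of these genes, against 14.6% of 27025 genes. The letters CCGGAAG, read on both strands over 300 bases and of the kind that ETS factors bind, were in 41.3%, against 9.93%. The letters AAGATGGC, read in the same way and of the kind that YY1 binds, were in 9.52%, against 3.19%. A match is a description and not a bound site.

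The 60 bases before and 30 after the start are given for the 2 paralogs with the lowest fold, for Rpl41, and for Rpl7a and Rpl35, which lay among the least negative of the bright genes. Capitals mark CTTTC, or CCGGAAG on either strand. The windows lie at chr3:28805448-28805537 (plus), chr16:10170168-10170257 (plus), chr10:128549139-128549228 (minus), chr2:26910747-26910836 (plus) and chr2:39005102-39005191 (minus) of GRCm38.p6.
Rpl22l1: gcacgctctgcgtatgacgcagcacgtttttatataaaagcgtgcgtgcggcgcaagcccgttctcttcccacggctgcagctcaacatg
Rpl39l: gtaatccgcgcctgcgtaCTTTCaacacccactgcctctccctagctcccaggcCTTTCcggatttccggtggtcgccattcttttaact
Rpl41: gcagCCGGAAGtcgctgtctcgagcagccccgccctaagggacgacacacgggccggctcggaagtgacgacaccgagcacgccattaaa
Rpl7a: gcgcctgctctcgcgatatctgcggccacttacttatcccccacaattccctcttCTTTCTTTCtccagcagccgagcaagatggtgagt
Rpl35: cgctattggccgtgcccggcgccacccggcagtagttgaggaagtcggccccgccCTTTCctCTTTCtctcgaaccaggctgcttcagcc

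Genes that work with the cytosolic ribosome were read from lists, beside the 26.1% of all genes that fell at the 75th-percentile scaling and the 14.5% after quantile normalization. Without combination replicate 2, or with only the 2 groups fitted, 0 genes of the arrays were called, and so none of the calls in these lists, the mitochondrial list or the marker lists remained. Of 24 tested genes for translation elongation and other TOP mRNAs 19 fell and 0 rose in combination tumors, with Eef1b2, an elongation factor subunit, at -0.98 and Gnb2l1, the ribosome-bound Rack1, at -0.94. After quantile normalization 1 fell and 1 rose. Fau, which codes for a ribosomal protein outside the name rule that is made as a fusion, fell by 0.88 and lay at 0.02 after quantile normalization. Of 58 ribosome assembly and nucleolar genes 22 fell and 0 rose, and after quantile normalization 15 fell, with Nop10 and Riok2 at -0.96 and -0.91, or -0.73 and -0.85 (adjusted p = 0.016 and 0.0191). Of 15 RNA polymerase I genes 5 fell, or 2 after quantile normalization, with the subunit Twistnb at -0.82 and -0.80. Of 16 tested regulators of ribosomal protein synthesis 3 fell and 1 rose, where 9.62% of all genes rose, and after quantile normalization 3 rose and 0 fell, where 13% rose. Those that fell were Mtor, the kinase of that pathway, by 0.76, Eif4ebp1, a repressor of translation that mTOR phosphorylates, by 0.75, and Mdm2 by 0.36 (adjusted p = 0.0473, 0.0453 and 0.0476). Tsc1, an inhibitor of mTOR signaling, rose by 0.43 under both scalings. After quantile normalization Max, the partner of Myc, and Larp1, which binds TOP mRNAs, also rose, by 0.57 and 0.64 (adjusted p = 0.0317 and 0.0376).

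Mitochondrial ribosomal proteins, which build the separate ribosome of mitochondria, were at middle levels, with a median level of 4.09. In combination tumors 60 of 77 fell and 0 rose, against 26.1% of all genes lower, and after quantile normalization 34 fell and 0 rose, against 14.5%, with medians of -0.58 and -0.38. Mrpl57 and Mrpl41 fell by 1.14 and 1.06, and by 0.73 and 0.80 after quantile normalization.

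Markers of other cell types moved in the same tumors, where 9.62% of all genes rose and 26.1% fell, or 13% and 14.5% after quantile normalization. In a bulk sample, fewer cells of a type and less RNA per cell cannot be told apart. Of 12 T-cell and NK-cell markers 5 rose and 0 fell in combination tumors, with a summed level of 11.5 to 36.1 in vehicle and 63.4 to 99.2 in combination. Of 8 fibroblast markers 5 rose and 0 fell, with 242 to 283 against 464 to 489, and of 10 tested macrophage markers 5 rose and 2 fell, with 634 to 692 against 620 to 683. Lyz2, the brightest of them, fell by 0.56, and the other 9 summed to 195 to 222 in vehicle and 289.7 to 398 in combination. All 6 red blood cell markers fell, with 626 to 984 against 141 to 178. After quantile normalization 4, 6, 6 and 0 of these 4 lists rose and 0, 0, 0 and 6 fell, in the same order. Of 15 cell division genes 3 fell and 0 rose, or 1 fell and 2 rose after quantile normalization. Of the colon epithelium markers 3 of 8 tested fell, or 2 after quantile normalization, and Cdx1 and Vil1 were not well above background on any array. Those that fell were Krt18, at a mean level of 2.78, and the dim Cdx2 and Tspan8, at -4.02 and -3.18. With the single agents 0 markers of T cells and NK cells, fibroblasts, macrophages or red blood cells were called at the 75th-percentile scaling. The T-cell and NK-cell sum was 35.6 to 41.6 with TP-16 and 44.6 to 53.6 with anti-PD-1, and the red blood cell sum 184 to 216 and 298 to 312. Of 5 B-cell markers 3 fell and 0 rose, with a summed level of 0.819 to 1.42 in vehicle and 1.40 to 1.83 in combination. Those that fell, Ms4a1, Cd79a and Pax5, were dim, at mean levels of -2.49, -4.46 and -4.44. Of 7 tested neutrophil markers 2 fell and 0 rose, with 106.6 to 117 against 56.3 to 70.4. After quantile normalization 2 fell and 1 rose in each of these lists. The part of these cell types in the levels of the ribosomal protein genes was not tested.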

How the data were processed

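The sample labels gave the groups and replicate numbers. The labels name a column kit for RNA and the methods TRIzol. The authors deposited scanner intensities, background-subtracted by Agilent Feature Extraction 10.7.1.1, and a table of log2 values that the methods attribute to GeneSpring. The kind of normalization of that table was not given in the sources used here, and the distributions of its columns were the same to within 0.065. Here, control spots were removed, 38 probes with outlier marks were left out, log2 spots of a probe were averaged, and each array was scaled by subtracting its 75th percentile. Probes with both arrays of a group well above background were fitted in limma 3.58.1 under R 4.3.3, with 8 arrays, 4 group means, shared variance and Benjamini-Hochberg adjustment over 31912 probes. Genes were counted by their brightest tested probe. Python 3.11.15, pandas 2.3.3 and matplotlib 3.10.9 were also used.

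The members and lists were chosen with earlier results of these data known. Named genes are the 3 highest and 3 lowest members in each comparison with vehicle, up to 10 called members per comparison by fold, paralogs with their parents, and 9 genes with known roles; some of them are not reported here. Of 84 tested members 79 matched a RefSeq symbol by accession. Alternatives were quantile and cyclic loess normalization, normexp with an offset of 50, other filters on dim probes, the mean over probes of a gene, the replicate block, the authors' values, other moderation, the 2 groups alone, the methods' t-test, and leaving out each array. On simulated data with 200 changed of 31912 probes, the combination fit found 28% of the changes of 1 and 61% of those of 2 on the log2 scale, with 2 false calls. In the data a far larger share, 35.7% of genes, was called, so these rates need not hold for this comparison.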

Additional observations from a re-analysis of the deposited data

Results flagged for a closer look

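Rps4l was the member for which the effect of TP-16 differed with and without the antibody at an unadjusted p of at most 0.05. Its departure from additivity was 1.21 on the log2 scale (limma adjusted p = 0.584), so it failed the adjustment. TP-16 alone gave a log2 fold change of -1.09, and TP-16 added to the antibody gave 0.13. Its levels were -0.75 and -1.10 on the TP-16 arrays and -0.15 and -0.07 on the combination arrays. For this departure no member was higher at the unadjusted threshold without vehicle replicate 2, TP-16 replicate 2, anti-PD-1 replicate 2 or combination replicate 2, and 1 member was lower without the first of these.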

How the results depend on the processing

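The number of ribosomal protein genes called in combination against vehicle was 81 at the 75th-percentile scaling, where 26.1% of all genes fell. It was 7 after quantile normalization (14.5% of all genes lower), 7 with the authors' values (3123 of 21497 genes) and 19 after cyclic loess normalization (13%). In the fit of the compared groups only and by the methods' t-test it was 0, as it was for all genes. The t-test gave 78 lower at an unadjusted p of at most 0.05, against 22.1% of all genes. Scalings chosen after seeing the data gave 2 (no scaling) and 3 (centred on the bright ribosomal protein genes). In each 1 was higher, where 49.9% and 58.7% of all genes were higher. The others were lower, where 2.55% and 2.2% of all genes were lower. For TP-16 against vehicle the count of 0 became 59 with normexp correction, where 17.2% of all genes fell, and 47 with trended and robust moderation, where 3.95% fell. For combination against anti-PD-1 it became 81 and 80 in these 2 settings, against 20.2% and 8.8% of all genes, all lower. Among probes above background on all 8 arrays it became 73, all lower, against 6%. With no scaling and with centring it became 2 and 1, all higher, against 47% and 54.3% of all genes. The replicate block left the combination count at 81 and changed no other count of calls. The numbers do not pair the samples by the labels, and deviations of same-numbered samples correlated between -0.19 and 0.29. With the anti-PD-1 numbers crossed, 81 genes were called against vehicle in the combination and 0 in the other comparisons. Leaving out 1 array gave 0 to 81 calls in combination against vehicle, with 0 without combination replicate 2, and 0 to 0 in the other 5 comparisons.

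The median log2 fold change of the family less that of all genes moved by more than its replicate SD of 0.10 under some settings. In combination against vehicle (main -0.73) it was -0.0311 after quantile normalization, -0.20 after cyclic loess, -0.0342 with the authors' values, -0.59 with normexp and -0.33 without a filter on dim probes. In TP-16 against vehicle (-0.41) it was -0.038, -0.13 and -0.0355 after the first 3, and -0.0744 without the filter. In anti-PD-1 against vehicle (-0.13) it was -0.0033 after quantile normalization and -0.0095 with the authors' values. In combination against TP-16 (-0.33) it was -0.0142, -0.0951 and -0.0173 after the first 3. In combination against anti-PD-1 (-0.60) it was -0.0258, -0.16 and -0.0235 after the first 3, -0.47 with normexp and -0.40 without the filter. For additivity (-0.18) it was -0.0067, -0.0416 and -0.0064 after the first 3 and -0.33 without the filter. Leaving out 1 array, it ran from -0.84 to -0.63, -0.44 to -0.37, -0.15 to -0.12, -0.42 to -0.24, -0.71 to -0.49 and -0.30 to -0.064 in the same order.

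In combination against vehicle 83 of 84 genes had a negative log2 fold change at the 75th-percentile scaling, and 67 after quantile normalization. Of the genes named by the rule, 5 turned sign after quantile normalization and with the authors' values. Rpl35 was at 0.0016 and 0.0043, Rpl7 at 0.064 and 0.063, Rplp0 at 0.024 and 0.021, Rplp2 at 0.068 and 0.068, and Rps18 at 0.084 and 0.081. Rpl7a, named after its values were seen, went from -0.69 to 0.20 after quantile normalization. The cause was not tested.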
